A study of Homo sapiens with 6 samples.

Results

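The genes described here are 48 interferon-stimulated genes, a set chosen by gene symbol that makes up 48 of the 39282 genes in the deposited tables. They were measured by RNA sequencing in cell lines of 2 ovarian tumour types, the teratocarcinoma line PA-1 and the clear cell carcinoma line TOV21G. In each line the groups were cells infected with lentivirus carrying sh-MEX3A#1 or sh-MEX3A#2, which are hairpins against the RNA-binding protein MEX3A, and cells infected with lentivirus carrying the scramble hairpin sh-Ctrl. Each line gave 1 library per hairpin, so there were 2 knockdown libraries and 1 control library per line, and every library came from infected cells. The series' design text calls the depleted cells clones and asks how each differs from sh-Ctrl. The labels do not state separate cultures for the libraries, and p-values therefore reflect spread among libraries that may be technical. The sh-MEX3A libraries also carry different hairpins, and the single sh-Ctrl library of a line was assumed to vary as they did.

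Interferons are cytokines that cells release when they sense viral nucleic acid. Type I interferons bind the IFNAR receptor, whose kinases JAK1 and TYK2 activate transcription factors that include STAT2. STAT2 works with IRF9 in a complex that binds the interferon-stimulated response element (ISRE) in promoters. The genes switched on include sensors of viral RNA, enzymes and membrane proteins that block viral growth, the ubiquitin-like protein ISG15 with its conjugation enzymes, and the class I antigen presentation machinery. Many of them keep a low level in cells that meet no virus.

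Promoters are shown for the genes the PA-1 results turn on, IFIT3, OAS3, HERC6, SAMD9, PSMB8 and TAP1, and for IFIT1, a neighbour of IFIT3 that stayed near its control. RefSeq promoter entries (build GRCh38.p14) were found for 39 of the 48 genes and not for DHX58, IRF7, IFIT2, OAS2, OASL, MX2, IFITM2, USP18 and TRIM22. Each stretch is the 120 bases before the annotated start, 5′ to 3′ on the strand of the gene. All letters are in lower case, with no part marked. IFIT3 and IFIT1 are separate genes of 1 cluster on the plus strand.
IFIT3 is shown at chr10:89327877-89327996 (plus strand) and IFIT1 is shown at chr10:89392503-89392622 (plus strand).
IFIT3: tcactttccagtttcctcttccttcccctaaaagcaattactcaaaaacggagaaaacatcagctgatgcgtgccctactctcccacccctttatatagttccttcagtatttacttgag
IFIT1: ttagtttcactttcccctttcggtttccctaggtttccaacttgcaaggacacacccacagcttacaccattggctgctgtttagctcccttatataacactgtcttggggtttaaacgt

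OAS3, an enzyme of RNA sensing, the ligase HERC6 and the antiviral effector SAMD9 come next.
OAS3 is shown at chr12:112938354-112938473 (plus strand), HERC6 is shown at chr4:88378732-88378851 (plus strand) and SAMD9 is shown at chr7:93117980-93118099 (minus strand).
OAS3: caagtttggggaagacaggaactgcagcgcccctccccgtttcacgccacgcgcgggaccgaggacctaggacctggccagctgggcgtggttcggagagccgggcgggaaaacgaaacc
HERC6: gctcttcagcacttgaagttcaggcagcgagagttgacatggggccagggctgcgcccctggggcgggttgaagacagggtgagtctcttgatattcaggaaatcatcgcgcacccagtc
SAMD9: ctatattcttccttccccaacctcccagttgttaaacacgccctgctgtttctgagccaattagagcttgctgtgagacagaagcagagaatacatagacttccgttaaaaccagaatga

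PSMB8 and TAP1 are neighbours in the class II region of the major histocompatibility complex, both on the minus strand.
PSMB8 is shown at chr6:32844680-32844799 (minus strand) and TAP1 is shown at chr6:32853705-32853824 (minus strand).
PSMB8: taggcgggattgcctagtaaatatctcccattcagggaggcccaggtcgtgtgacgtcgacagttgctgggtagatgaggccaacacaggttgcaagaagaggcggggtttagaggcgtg
TAP1: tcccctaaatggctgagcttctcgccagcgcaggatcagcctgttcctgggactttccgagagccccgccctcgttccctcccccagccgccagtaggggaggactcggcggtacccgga

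The expected counts summed to 15769163 and 19495162 in PA-1 with sh-MEX3A#1 and sh-MEX3A#2 and to 15861565 in PA-1 sh-Ctrl, and to 14654628 and 16012602 in TOV21G with the same hairpins and 15694371 in TOV21G sh-Ctrl. At this depth 3 counts correspond to 0.153 to 0.202 CPM, where CPM is the count over the TMM-scaled size of the library. MEX3A stood at 41.2 and 54.9 CPM in PA-1 with sh-MEX3A#1 and sh-MEX3A#2, against 137 CPM in PA-1 sh-Ctrl. TOV21G libraries with sh-MEX3A#1 and sh-MEX3A#2 had 40.1 and 33.1 CPM of MEX3A, and TOV21G sh-Ctrl had 78.3 CPM. The labels give ovarian surface epithelial cells as the tissue of both lines. PA-1 sh-Ctrl held the stem cell factors SOX2 (394 CPM) and POU5F1 (468 CPM), with PAX8, a Müllerian lineage factor, at 0.189 CPM. TOV21G sh-Ctrl held 267 CPM of PAX8. Of 9 stem cell and teratocarcinoma markers 8 were called higher in PA-1 sh-Ctrl than in TOV21G sh-Ctrl, against 7.29% of all genes tested. Of 9 clear cell carcinoma markers, keratins among them, 3 were called lower in PA-1 sh-Ctrl and 1 higher. The shares of all genes tested were 7.59% lower and 7.29% higher. The summed level of these 9 markers was 529 TPM in PA-1 sh-Ctrl and 520 TPM in TOV21G sh-Ctrl. Leukocyte markers were at low levels. At most 3 counts in every library were seen for 5 of 8 T and NK cell markers (PTPRC at most 2, CD2 and GNLY at 0), 4 of 8 myeloid markers (TYROBP at 0) and 2 of 4 B cell markers. Above 3 counts in at least 1 library were CD3D, CD8A and KLRD1, the myeloid markers CSF1R, CD68, ITGAM and AIF1, and CD79A and CD79B. The summed T and NK cell markers had 1.84 and 2.53 TPM in PA-1 with the hairpins against 0.16 TPM in PA-1 sh-Ctrl, and 3.06 and 0.99 TPM in TOV21G with the hairpins against 1.99 TPM in TOV21G sh-Ctrl. The summed myeloid markers had 6.52 and 8.84 TPM in PA-1 with the hairpins against 4.41 TPM in PA-1 sh-Ctrl, and 4.56 and 11.04 TPM in TOV21G with the hairpins against 4.39 TPM in TOV21G sh-Ctrl. The summed B cell markers had 6.40 and 2.82 TPM in PA-1 with the hairpins against 7.71 TPM in PA-1 sh-Ctrl, and between 0.94 and 1.06 TPM in the TOV21G libraries. NEAT1, a nuclear RNA, had 270 and 273 CPM in PA-1 with the hairpins and 119 CPM in PA-1 sh-Ctrl, and 1133 and 1068 CPM in TOV21G with the hairpins and 361 CPM in TOV21G sh-Ctrl. The part of these markers and of NEAT1 in the differences below was not tested.

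Which of the 48 genes can be measured differed between the lines. A gene was called not measurable in a line where no library had more than 3 expected counts, and low where none reached 10. In PA-1 34 genes were measurable and 3 were low, the RNA sensors DHX58 (LGP2) and IFIH1 (MDA5) and the apoptosis factor XAF1. The other 11 were not measurable in PA-1. They were the GTPases MX1, MX2 and GBP1, the oligoadenylate synthetases OAS1 and OAS2 with their relative OASL, IFI27, IFI44, IFI44L, and the neighbouring antiviral enzymes RSAD2 (viperin) and CMPK2. In TOV21G 44 genes were measurable, IFI27 and RSAD2 were low, and CMPK2 and MX2 were not measurable. In bulk libraries, fewer cells with a transcript and less transcript per cell cannot be told apart.

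The interferon-induced membrane proteins and the class I light chain led the levels, here in TPM, which scales by transcript length. IFITM3, which blocks fusion of viruses in endosomes, had 432 and 440 TPM in PA-1 with sh-MEX3A#1 and sh-MEX3A#2, against 557 TPM in PA-1 sh-Ctrl. BST2 (tetherin), which holds budding virus on the cell surface, had 307 and 281 TPM in PA-1 with the hairpins, against 292 TPM in PA-1 sh-Ctrl. B2M, the class I light chain, was the highest of the 48 in TOV21G, with 1030 and 699 TPM with the hairpins, against 602 TPM with sh-Ctrl. Over the 3 libraries of PA-1, hairpins and control together, the order began with IFITM3 (476 ± 70.0 TPM, SD), BST2 (293 ± 13.2) and B2M (248 ± 60.1). BST2 and B2M did not differ beyond their spread. IFITM2 (120 ± 23.3) and HLA-C (93.8 ± 14.5) came after them, with IFITM2 above HLA-C in each PA-1 library. In TOV21G the order after B2M (777 ± 224) was IFITM3 (277 ± 102), IFITM2 (243 ± 81.1), IFITM1 (176 ± 94.8), HLA-B (165 ± 65.1) and BST2 (151 ± 34.8), each within the spread of the next. IFITM2 was nevertheless above IFITM1 in each TOV21G library. The summed TPM of the 48 genes was 1719 and 1708 in PA-1 with the hairpins against 1644 in PA-1 sh-Ctrl, and 2924 and 2061 in TOV21G with the hairpins against 2192 in TOV21G sh-Ctrl.

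**Figure D1:**
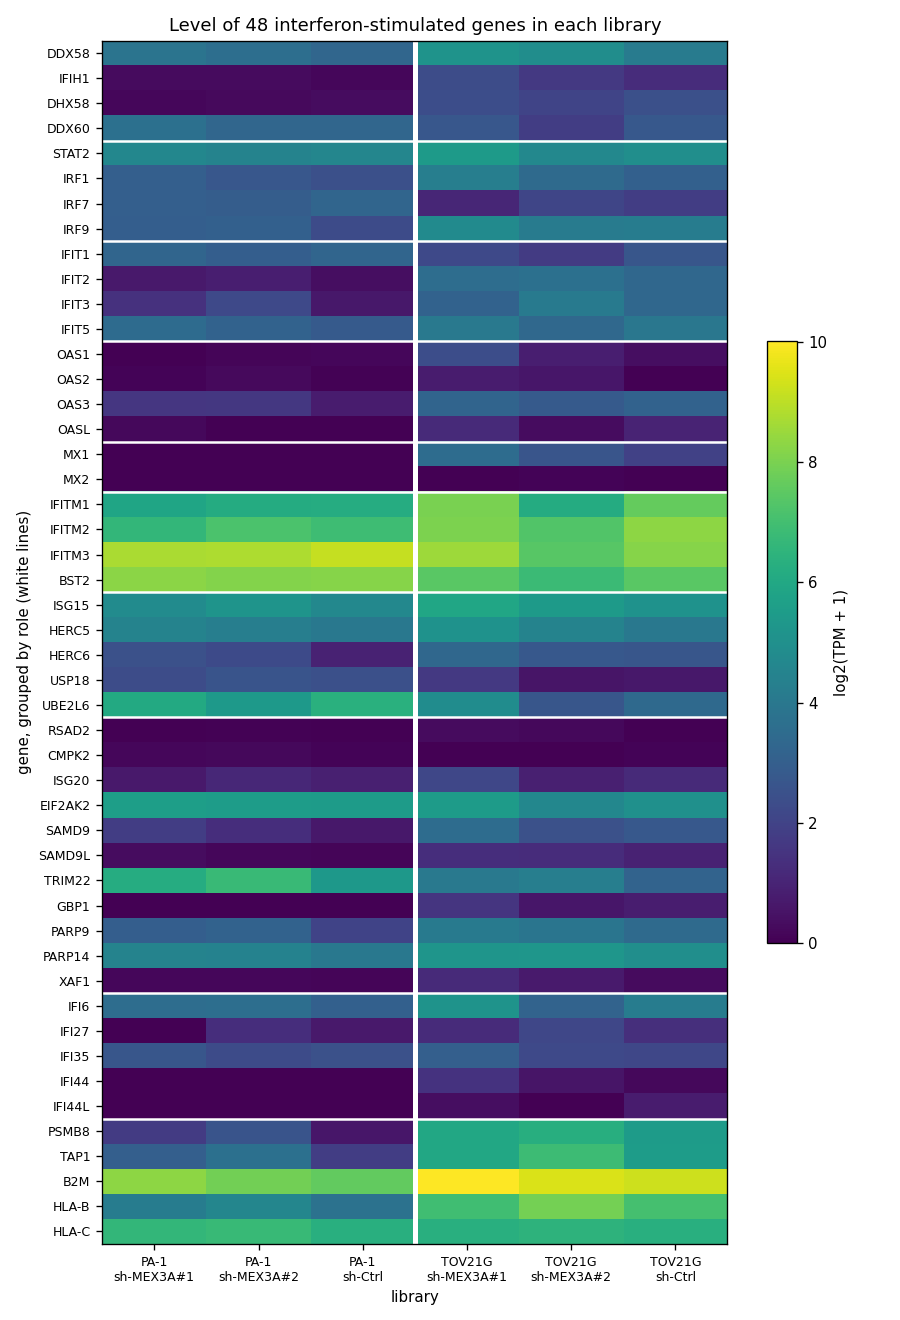
Level of each of the 48 genes (rows, grouped by role) in each of the 6 libraries (columns, hairpins left of sh-Ctrl in each line), as log2(TPM + 1) in colour. IFITM3, BST2 and B2M are bright in every library, and the MX, OAS1, OAS2 and IFI44 rows are dark in PA-1.

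The baseline comparison set PA-1 sh-Ctrl against TOV21G sh-Ctrl. Most of the genes that differed were lower in PA-1, among them the OAS3, IFIT2, MX1, SAMD9 and IRF9 transcripts and the antigen presentation genes PSMB8, TAP1, HLA-B and B2M. The edgeR quasi-likelihood test over all 16855 genes that passed its filter covered 44 of the 48 (not CMPK2, IFI27, MX2 and RSAD2). At an adjusted p under 0.05 it called 14 of the 44 lower in PA-1 (31.8%) against 7.59% of all genes tested, and 1 higher, against 7.29% of all genes. DESeq2 called 20 of the 40 for which it gave an adjusted p, against 22.6% of all genes with one. At least 2-fold lower in PA-1 were 26 of the 44, against 22% of all genes, and at least 2-fold higher were 4, against 20.3%. The median difference of the 44 was -1.27 on the log2 CPM scale (prior count 2, PA-1 minus TOV21G), beside 0 for all genes tested. Some of the 44 passed the filter on low counts through TOV21G alone, so these counts describe the comparison and do not test the set. Each line has 1 control library, and the spread was taken from the hairpin libraries.

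Among RNA sensors and signalling factors, DHX58 had 4 counts in PA-1 sh-Ctrl and 80 in TOV21G sh-Ctrl, and IFIH1 had 3 counts in PA-1 sh-Ctrl and 38 in TOV21G sh-Ctrl. The ratio of DHX58 was 0.0485 (95% exact counting interval 0.0129 to 0.129), and that of IFIH1 was 0.0765 (0.0151 to 0.241). DDX58 (RIG-I), the sensor of viral RNA with free triphosphate ends, was less apart. It stood at 17.6 CPM in PA-1 sh-Ctrl and 38.5 CPM in TOV21G sh-Ctrl. The edgeR test did not call it (edgeR adjusted p = 0.0595), although DESeq2 did (DESeq2 adjusted p = 0.0465). DDX60, the other RNA sensor of the set, lay the other way and did not pass (edgeR adjusted p = 0.423). It had 22.8 CPM in PA-1 sh-Ctrl and 15.1 CPM in TOV21G sh-Ctrl. IRF9, the DNA-binding subunit of the ISRE complex, stood at 2.33 CPM in PA-1 sh-Ctrl and 12.4 CPM in TOV21G sh-Ctrl (log2 fold change -2.41, SE 0.46, edgeR adjusted p = 0.0304). Its partner STAT2 stood at 42.9 CPM in PA-1 sh-Ctrl and 65.7 CPM in TOV21G sh-Ctrl, with an edgeR adjusted p of 0.34. IRF7, which amplifies type I interferon production, stood at 5.98 CPM in PA-1 sh-Ctrl and 2.27 CPM in TOV21G sh-Ctrl and did not pass (edgeR adjusted p = 0.309).

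Effector genes called lower in PA-1 came from several families. In the IFIT cluster on chromosome 10, a span of 119.0 kb whose proteins bind viral RNA caps and ends, IFIT2 stood at 0.441 CPM in PA-1 sh-Ctrl and 14.9 CPM in TOV21G sh-Ctrl (log2 fold change -5.06, SE 0.54, edgeR adjusted p = 0.00788). IFIT1 in the same cluster stood at 15.9 CPM in PA-1 sh-Ctrl and 11.5 CPM in TOV21G sh-Ctrl, with an edgeR adjusted p of 0.453. In the OAS cluster on chromosome 12, whose enzymes make the 2-5A signal that activates RNase L, OAS3 stood at 2.01 CPM in PA-1 sh-Ctrl and 25.5 CPM in TOV21G sh-Ctrl (-3.66, SE 0.38, edgeR adjusted p = 0.00728). MX1, a GTPase that traps viral nucleocapsids, had 0 counts in all 3 PA-1 libraries and 57 counts in TOV21G sh-Ctrl, at least 19.6-fold lower in PA-1 sh-Ctrl against a floor of 3 counts. By the same floor GBP1 was at least 5.50-fold, OASL at least 4.47-fold and IFI44L at least 3.78-fold lower in PA-1 sh-Ctrl. GBP1, OASL and IFI44L had 16, 13 and 11 counts in TOV21G sh-Ctrl and were not called (edgeR adjusted p = 0.126, 0.157 and 0.192). SAMD9, an inhibitor of poxvirus replication, stood at 1.76 CPM in PA-1 sh-Ctrl and 19.3 CPM in TOV21G sh-Ctrl (-3.45, SE 0.71, edgeR adjusted p = 0.036). Its neighbour SAMD9L (edgeR adjusted p = 0.0365), the ligase HERC6 (0.0228) and the ADP-ribosylation factor PARP9 (0.0268) were also lower in PA-1.

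Class I antigen presentation held 4 of the 14 lower calls. PSMB8, a catalytic subunit of the immunoproteasome, had 4 counts in PA-1 sh-Ctrl and 312 in TOV21G sh-Ctrl (log2 fold change -6.29, SE 0.79, edgeR adjusted p = 0.0109). TAP1, which carries peptides into the endoplasmic reticulum, stood at 2.71 CPM in PA-1 sh-Ctrl and 54.5 CPM in TOV21G sh-Ctrl (-4.33, SE 0.75, edgeR adjusted p = 0.0235). HLA-B stood at 7.30 CPM in PA-1 sh-Ctrl and 87.7 CPM in TOV21G sh-Ctrl (edgeR adjusted p = 0.0296), and B2M at 61.2 CPM in PA-1 sh-Ctrl and 216 CPM in TOV21G sh-Ctrl (edgeR adjusted p = 0.0321). The other class I heavy chain of the set, HLA-C, stood at 45.4 CPM in PA-1 sh-Ctrl and 51.8 CPM in TOV21G sh-Ctrl and did not pass (edgeR adjusted p = 0.726). HLA genes are polymorphic and share reads, so their counts also depend on how close each line's alleles are to the annotated ones.

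The 1 gene called higher in PA-1 was TRIM22, an antiviral ubiquitin ligase that is also a known target of p53. It stood at 47.0 CPM in PA-1 sh-Ctrl and 11.1 CPM in TOV21G sh-Ctrl (log2 fold change 2.08, SE 0.47, edgeR adjusted p = 0.0462). The TRIM22 call was lost without PA-1 sh-MEX3A#1 and without PA-1 sh-MEX3A#2 (edgeR adjusted p = 0.0735 and 0.0742). The ISG15-conjugating enzyme UBE2L6 stood at 35.4 CPM in PA-1 sh-Ctrl and 4.87 CPM in TOV21G sh-Ctrl, and the ISG15 protease USP18 at 3.34 CPM in PA-1 sh-Ctrl and 0.455 CPM in TOV21G sh-Ctrl. Neither passed (edgeR adjusted p = 0.135 and 0.131), although DESeq2 called UBE2L6. The RNA-activated kinase EIF2AK2 (PKR) stood at 190 CPM in PA-1 sh-Ctrl and 152 CPM in TOV21G sh-Ctrl, and ISG15 at 4.03 CPM in PA-1 sh-Ctrl and 6.50 CPM in TOV21G sh-Ctrl, neither passing. The number of baseline calls among the set was 7 without PA-1 sh-MEX3A#1 and 8 without PA-1 sh-MEX3A#2, against 8.46% and 8.71% of all genes tested. B2M, DHX58, HERC6, IFIH1, IRF9, PARP9, SAMD9L and TRIM22 lost their call in both of these fits. The control libraries compared stay the same there, and the log2 fold changes of these 8 genes moved by at most 0.0063. The number was 25 and 27 without TOV21G sh-MEX3A#1 and sh-MEX3A#2, where 38% and 37.6% of all genes were called.

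**Figure D2:**
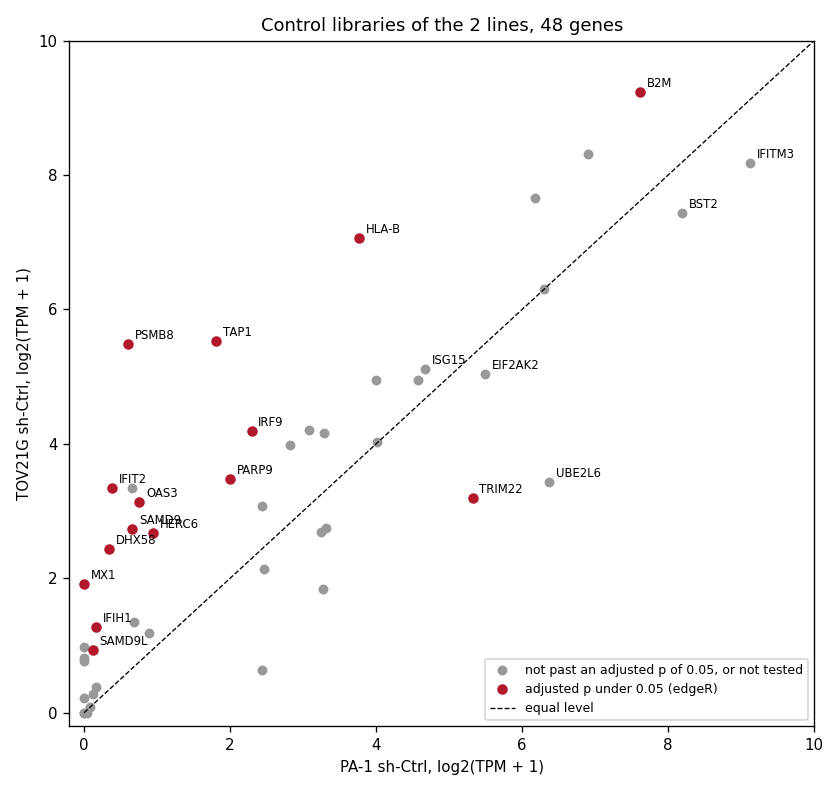
Level of the 48 genes in PA-1 sh-Ctrl (x axis) and TOV21G sh-Ctrl (y axis), both as log2(TPM + 1), with the dashed line at equal levels. Red points are the 15 genes with an edgeR adjusted p under 0.05, of which 14 lie above the line (lower in PA-1) and TRIM22 lies below it.

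The comparison of MEX3A depletion with sh-Ctrl in PA-1 gave no gene of the set past the threshold. HERC6, OAS3, SAMD9, IFIT3, PSMB8 and TAP1 were each at least 2-fold above PA-1 sh-Ctrl with each hairpin, from low control levels. How many of all genes did so with both hairpins was not counted, so this list has no background share. By edgeR 0 of the 44 tested genes had an adjusted p under 0.05, as had 0 of all 16855 genes. At an unadjusted p under 0.05 there were 7 (15.9%), against 2.57% of all genes tested, and DESeq2 called 0 of the 40 for which it gave an adjusted p, against 0.232% of all genes with one. Of the 44, 7 were not measurable in PA-1 (MX1, GBP1, IFI44, IFI44L, OAS1, OAS2 and OASL) and passed the filter through TOV21G, so the comparison in PA-1 bears on the other 37. With sh-MEX3A#1 7 of the 44 were at least 2-fold higher, against 5.59% of all genes, and 0 were at least 2-fold lower, against 2.19%. With sh-MEX3A#2 9 were at least 2-fold higher, against 6.95% of all genes, and 0 were at least 2-fold lower, against 2.48%. The median log2 difference was 0.30 with sh-MEX3A#1 and 0.37 with sh-MEX3A#2, beside 0 over all genes tested with either. Over the 37 measurable or low genes the medians were 0.40 and 0.38, and the genes at least 2-fold higher numbered 7 and 9, as over the 44. The hairpins share 1 sh-Ctrl library, so their differences are not independent.

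HERC6, a relative of the ISG15 ligase HERC5, had 6.73 and 5.80 CPM with sh-MEX3A#1 and sh-MEX3A#2, against 1.45 CPM in PA-1 sh-Ctrl. Its log2 fold change was 2.11 (SE 0.44, edgeR adjusted p = 1). OAS3 had 5.58 and 6.10 CPM with the hairpins, against 2.01 CPM in PA-1 sh-Ctrl (log2 fold change 1.53, SE 0.33, edgeR adjusted p = 1). For both genes the hairpin libraries lay close together. SAMD9 had 7.34 and 4.42 CPM with the hairpins, against 1.76 CPM in PA-1 sh-Ctrl (1.73, SE 0.63, edgeR adjusted p = 1). The remaining genes differed more between hairpins, with the higher value under sh-MEX3A#2. IFIT3 had 26 and 69 counts (1.58 and 3.51 CPM) with the hairpins, against 9 counts (0.567 CPM) in PA-1 sh-Ctrl. PSMB8 had 15 and 40 counts with the hairpins, against 4 counts in PA-1 sh-Ctrl, and these ratios of 3.61 and 8.08 had exact 95% counting intervals of 1.15 to 15.0 and 2.92 to 31.1. TAP1 had 6.86 and 12.5 CPM with the hairpins, against 2.71 CPM in PA-1 sh-Ctrl (1.84, SE 0.65, edgeR adjusted p = 1).

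PARP9, TRIM22, IFIT2 and IRF9 fell just short of 2-fold with at least 1 hairpin. PARP9 had 12.0 and 13.7 CPM with the hairpins, against 5.98 CPM in PA-1 sh-Ctrl (1.10, SE 0.29, edgeR adjusted p = 1). TRIM22 had 81.8 and 133 CPM with the hairpins, against 47.0 CPM in PA-1 sh-Ctrl (1.19, SE 0.41, edgeR adjusted p = 1). IRF9 had 4.07 and 4.78 CPM with the hairpins, against 2.33 CPM in PA-1 sh-Ctrl. These genes were picked for lying on the same side of the control with both hairpins, so that agreement is not a separate result.

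Several other genes of the set were less than 2-fold from their control in PA-1, and some of these lay close to it. IFIT1 had 15.2 and 13.0 CPM with the hairpins, against 15.9 CPM in PA-1 sh-Ctrl. STAT2 had 43.9 and 39.5 CPM with the hairpins, against 42.9 CPM in PA-1 sh-Ctrl. EIF2AK2 had 194 and 195 CPM with the hairpins, against 190 CPM in PA-1 sh-Ctrl. ISG15, the modifier itself, had 4.25 and 5.75 CPM with the hairpins, against 4.03 CPM in PA-1 sh-Ctrl. The membrane restriction factors had medians of -0.38 and -0.03 with sh-MEX3A#1 and sh-MEX3A#2. BST2 had 96.4 and 93.5 CPM with the hairpins, against 96.9 CPM in PA-1 sh-Ctrl, and IFITM3 had 61.9 and 66.9 CPM with the hairpins, against 84.9 CPM in PA-1 sh-Ctrl. UBE2L6 also lay below its control, with 27.6 and 17.8 CPM with the hairpins, against 35.4 CPM in PA-1 sh-Ctrl (-0.64, SE 0.82, edgeR adjusted p = 1). The 5 antigen presentation genes had medians of 0.61 and 0.88, and the 39 other tested genes had medians of 0.16 and 0.27. HLA-B had 9.59 and 13.5 CPM with the hairpins, against 7.30 CPM in PA-1 sh-Ctrl, and B2M had 93.3 and 74.5 CPM with the hairpins, against 61.2 CPM in PA-1 sh-Ctrl.

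In TOV21G the set also gave no call. The tested genes at least 2-fold above sh-Ctrl with both hairpins were OAS1, OAS2, IFI44 and XAF1, all near the floor of the control library. The share of all genes that did so with both hairpins was not counted here either. By edgeR 0 of the 44 genes and 0 of all genes had an adjusted p under 0.05. At an unadjusted p under 0.05 there were 3 (6.82%), against 9.56% of all genes tested, and DESeq2 called 0 of the 28 for which it gave an adjusted p, against 1.89% of all genes with one. It gave none for OAS1, OAS2, IFI44, XAF1 and MX1. With sh-MEX3A#1 9 of the 44 were at least 2-fold higher, against 8.71% of all genes, and 2 were at least 2-fold lower, against 7.87%. With sh-MEX3A#2 6 were at least 2-fold higher, against 12.4% of all genes, and 6 were at least 2-fold lower, against 10.7%. The medians were 0.43 and 0.14 with sh-MEX3A#1 and sh-MEX3A#2, beside 0 over all genes tested. Without the TOV21G sh-MEX3A#1 library, the test called 1 gene of the set, IFITM1, lower, and 8.93% of all genes tested. TOV21G then held 1 hairpin library, whose spread was taken from PA-1.

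OAS1 had 42 and 9 counts with sh-MEX3A#1 and sh-MEX3A#2, against 3 counts in TOV21G sh-Ctrl. The ratios were 14.2 (95% exact counting interval 4.54 to 71.7) and 3.10 (0.774 to 17.8). OAS2 had 14 and 9 counts with the hairpins, against 0 in TOV21G sh-Ctrl, at least 4.74-fold and 3.10-fold higher against the floor of 3 counts. IFI44, an interferon-induced protein of the cytoplasm, had 28 and 11 counts with the hairpins, against 2 counts in TOV21G sh-Ctrl. Its ratios were 14.2 (3.58 to 123) and 5.69 (1.24 to 52.8). XAF1, which counters the apoptosis inhibitor XIAP, had 25 and 17 counts with the hairpins, against 5 counts in TOV21G sh-Ctrl. RSAD2, low in TOV21G and not tested, had 5 and 4 counts with the hairpins, against 0 in TOV21G sh-Ctrl. All 4 tested genes were higher with sh-MEX3A#1 than with sh-MEX3A#2. They were listed for lying above the control with both hairpins, so that agreement is not a separate result. The IFI44 neighbour IFI44L went the other way, with 3 and 0 counts with the hairpins, against 11 counts in TOV21G sh-Ctrl.

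Genes with more reads in TOV21G sh-Ctrl differed from it in both directions. MX1 had 12.5 and 7.19 CPM with sh-MEX3A#1 and sh-MEX3A#2, against 3.70 CPM in TOV21G sh-Ctrl (log2 fold change 1.41, SE 0.60, edgeR adjusted p = 0.56). DDX58 had 67.7 and 66.1 CPM with the hairpins, against 38.5 CPM in TOV21G sh-Ctrl (0.80, SE 0.25, edgeR adjusted p = 0.471). TRIM22 had 18.9 and 25.4 CPM with the hairpins, against 11.1 CPM in TOV21G sh-Ctrl (0.99, SE 0.41, edgeR adjusted p = 0.538). These 3 genes were listed because both hairpin libraries lay on the same side of the control, here above it. IFIT1, listed by the same rule, lay below the control. It had 6.66 and 5.04 CPM with the hairpins, against 11.5 CPM in TOV21G sh-Ctrl (-0.97, SE 0.33, edgeR adjusted p = 0.484). For the membrane restriction factors the hairpins gave different values. IFITM1 had 47.5 and 14.4 CPM with sh-MEX3A#1 and sh-MEX3A#2, against 42.2 CPM in TOV21G sh-Ctrl, and IFITM2 had 55.4 and 36.7 CPM, against 76.3 CPM in TOV21G sh-Ctrl. Their medians with BST2 and IFITM3 were -0.0018 with sh-MEX3A#1 and -0.94 with sh-MEX3A#2. UBE2L6 had 12.5 and 2.69 CPM with the hairpins, against 4.87 CPM in TOV21G sh-Ctrl. The antigen presentation genes had medians of 0.28 and 0.76, and TAP1 had 66.3 CPM with sh-MEX3A#1 and 135 CPM with sh-MEX3A#2, against 54.5 CPM in TOV21G sh-Ctrl.

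**Figure D3:**
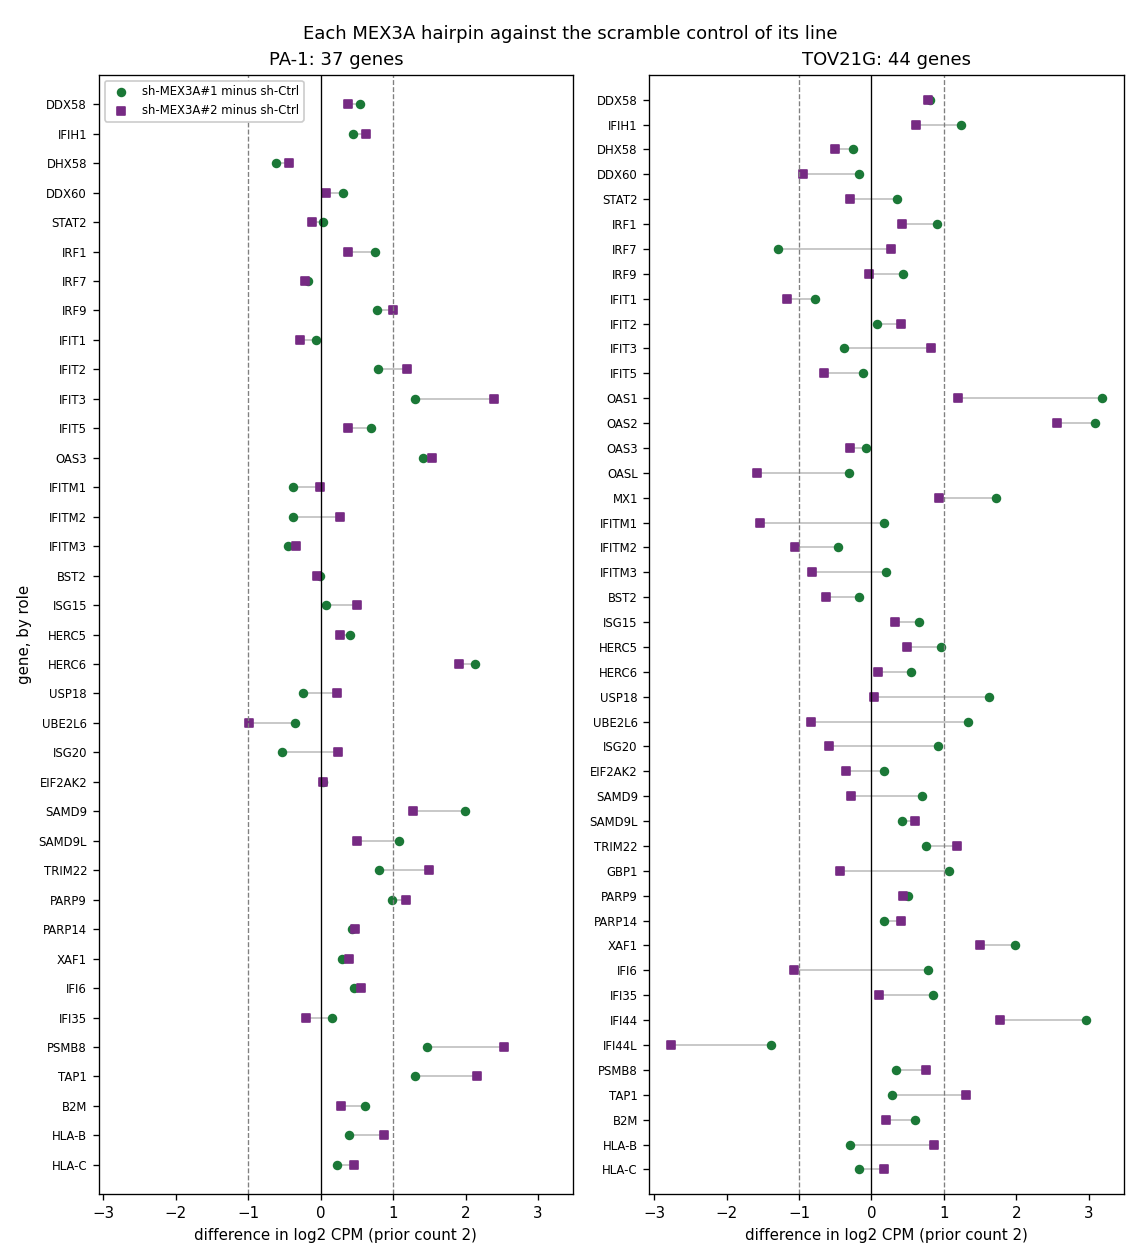
Difference in log2 CPM (prior count 2, x axis) of sh-MEX3A#1 (circles) and sh-MEX3A#2 (squares) from sh-Ctrl of the same line, for the tested genes measurable or low in PA-1 (left) and TOV21G (right), with dashed lines at 2-fold. In PA-1 HERC6, SAMD9, OAS3, IFIT3, PSMB8 and TAP1 have both symbols beyond the right dashed line, and in TOV21G OAS1, OAS2, IFI44 and XAF1 do.

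**Figure D4:**
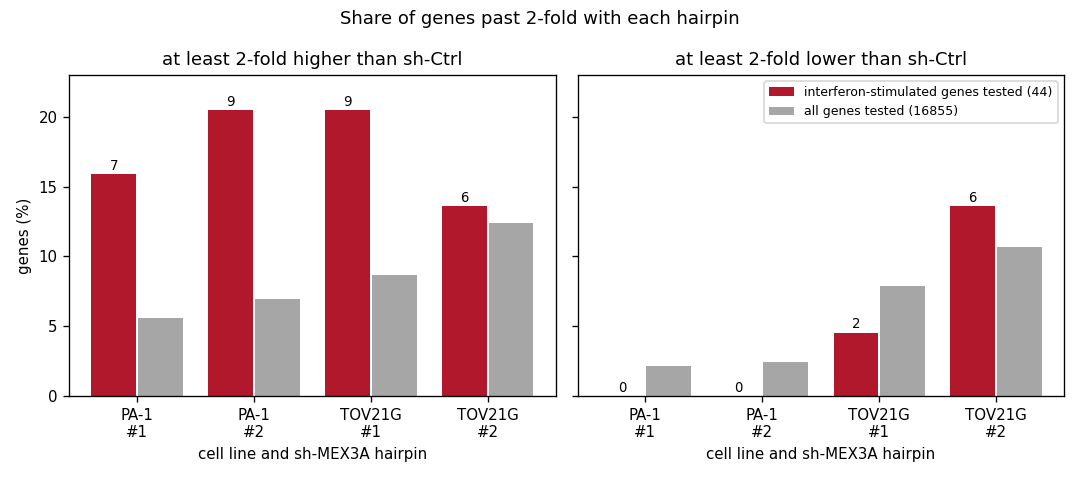
Percent of the 44 tested interferon-stimulated genes (red, with their number above the bar) and of all 16855 genes tested (grey) that were at least 2-fold higher (left) or lower (right) than sh-Ctrl with each hairpin. On the left the red bars exceed the grey ones in all 4 comparisons, but in TOV21G with sh-MEX3A#2 they are nearly equal (13.6% and 12.4%). There the red bar also exceeds the grey one on the right (13.6% and 10.7%), with 6 genes higher and 6 lower. In the other comparisons the red bars on the right are below the grey ones. The hairpins of each line share the same sh-Ctrl library, so the comparisons are not independent.

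The difference between the lines' responses was tested directly, as the PA-1 effect minus the TOV21G effect. By edgeR 0 of the 44 genes passed, as did 0 of all genes, and DESeq2 called 0 of the 37 for which it gave an adjusted p, against 0.13% of all genes with one. At an unadjusted p under 0.05 there were 2 (4.55%), against 3.81% of all genes tested. These were OAS3, with a difference of 1.72 on the log2 scale (SE 0.43, edgeR adjusted p = 1), and HERC6, with 1.77 (SE 0.55, edgeR adjusted p = 1). OAS3 had 24.1 and 20.8 CPM in TOV21G with the hairpins, against 25.5 CPM in TOV21G sh-Ctrl. HERC6 had 14.8 and 10.7 CPM in TOV21G with the hairpins, against 10.1 CPM in TOV21G sh-Ctrl. With the hairpins, both genes in PA-1 lay below the TOV21G sh-Ctrl level.

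Genes of the pathway around the set showed the same lack of calls after depletion. Of 52 ligand, receptor, kinase, sensor, regulator and class I presentation genes 41 were tested, and 0 passed edgeR in PA-1 or in TOV21G after depletion. At baseline 0 were called higher in PA-1, against 7.29% of all genes tested, and 5 lower, against 7.59%. The 5 lower genes were IFNE, IL10RB, TYK2, STING1 and ERAP2. Among ligands IFNB1, IFNA2, IFNK, IFNG, IFNL2 and IFNL3 had 0 counts in all 6 libraries. IFNA1 had 3 and 7 counts in TOV21G with sh-MEX3A#1 and sh-MEX3A#2, 3 counts in TOV21G sh-Ctrl and 0 in PA-1. IFNL1 had 1 count with PA-1 sh-MEX3A#1 and 0 in the other libraries. IFNE, an interferon of reproductive tract epithelium, had 0.546 and 0.763 CPM in PA-1 with the hairpins against 0.441 CPM in PA-1 sh-Ctrl, and 16.7 and 12.0 CPM in TOV21G with the hairpins against 9.35 CPM in TOV21G sh-Ctrl. Its baseline log2 fold change was -4.38 (SE 0.59, edgeR adjusted p = 0.0129). The peptidase ERAP2, which trims class I peptides, had 5.46 and 7.78 CPM in PA-1 with the hairpins against 1.57 CPM in PA-1 sh-Ctrl (2.07, SE 0.41, edgeR adjusted p = 1). TAPBP (tapasin), which loads class I peptides, had 168 and 230 CPM in TOV21G with the hairpins against 67.2 CPM in TOV21G sh-Ctrl (1.57, SE 0.34, edgeR adjusted p = 0.385). ERAP2 and TAPBP belong to a list of 11 class I presentation genes outside the set. The list's median differences were 0.12 and 0.25 in PA-1 with sh-MEX3A#1 and sh-MEX3A#2, and 0.11 and 0.70 in TOV21G. At least 2-fold higher were 1 and 1 in PA-1 (all genes 5.59% and 6.95%) and 3 and 4 in TOV21G (8.71% and 12.4%). At least 2-fold lower were 0 and 0 in PA-1 (2.19% and 2.48%) and 1 and 1 in TOV21G (7.87% and 10.7%).

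Some of these genes overlap others on the opposite strand in the annotation. IFIT1, IFIT2 and IFIT3 lie within the span of LIPA, TRIM22 within that of a TRIM5 transcript, and PARP9 and DTX3L overlap at their starts. TAP1 overlaps PSMB9 over 8770 bases and the noncoding PSMB8-AS1 over 1287 bases. PSMB8 overlaps them over 568 and 618 bases. PSMB9 had 0 to 2 counts in the PA-1 libraries and 13 to 42 in the TOV21G libraries. The libraries were made with a strand-marking kit, but the strand setting of the counting is not given in the sources used here. IFITM1 with IFITM2, and HLA-B with HLA-C, overlap on the same strand in the annotation and share similar sequence. Their reads may therefore be split between the paired genes.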

How the data were processed

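Poly(A) RNA of PA-1 and TOV21G cells was sequenced in 6 libraries, 1 for each hairpin and line. Per the file headers, the authors deposited an RSEM gene table for each library with the expected count, TPM, FPKM and transcript lengths of 39282 genes; FPKM was not used. The submitters' processing notes name cutadapt 1.12, STAR 2.5.3a, RSEM 1.2.31, edgeR 3.26.8 and hg38. RefSeq promoters came from GRCh38.p14.

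The deposited expected counts were rounded and fitted with edgeR 4.0.16 in R 4.3.3 (TMM, filterByExpr, 1 mean for each line and target), which left 16855 genes and 2 residual degrees of freedom. The quasi-likelihood F test was adjusted by Benjamini and Hochberg over all of them at 0.05. The shared biological coefficient of variation was 0.295, and it was 0.164 in PA-1 and 0.387 in TOV21G fitted alone. SE is the absolute log2 fold change over the root of its F statistic. Single hairpins were compared with sh-Ctrl without a test, as log2 CPM with a prior count of 2. Fold bounds used 3 counts per library, and intervals are exact (Clopper-Pearson, 95%) and cover counting error only. Scripts were tested on simulated data. Members and gene lists were chosen with earlier results of these data known. Genes with values in the text were those at least 2-fold from sh-Ctrl with both hairpins and at 1 CPM or more, those just under it, the 10 smallest baseline p, the highest TPM and examples of each role; OAS2, OASL, GBP1, IFI44L, IRF7, USP18 and HLA-C were added after their values were seen. Some pathway and marker genes are not reported here. Alternatives were DESeq2 1.42.0, RLE scaling, no filter, other prior counts, TPM, a hairpin-number block, single lines and leaving out each library.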

Additional observations from a re-analysis of the deposited data

How the results depend on the processing

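After MEX3A depletion in PA-1 the count of called genes stayed at 0 under RLE scaling, no filter, DESeq2, PA-1 libraries alone and each left-out hairpin library. In TOV21G it ranged from 0 to 1 over the left-out libraries (IFITM1 without sh-MEX3A#1) and was 0 under the other settings. With the hairpin number as a block it was 0 in both lines. The number marks a reagent and does not pair samples (1 pair of differences per line, Pearson 0.236 across 16855 genes, which are not independent replicates). Baseline calls were 15, ranged from 7 to 27 over left-out libraries (8.46% to 38% of all genes), and were 31 with all 3 libraries of each line (44.2%), 21 with the block (24.6%), 20 by DESeq2 (22.6%) and 16 without the filter (10.9%). The 8 genes that lost their call without either PA-1 hairpin library had an edgeR adjusted p of 0.0557 to 0.115 there. These fits hold fewer libraries. On log2(TPM + 1), which shrinks low genes, the genes at least 2-fold higher numbered 4 with PA-1 sh-MEX3A#1 and 2 with TOV21G sh-MEX3A#2. Those at least 2-fold lower numbered 0 and 3 with TOV21G sh-MEX3A#1 and sh-MEX3A#2. Medians there were 0.20 and 0.21 in PA-1 with sh-MEX3A#1 and sh-MEX3A#2, beside 0.057 and 0 for all genes. They were 0.56 with TOV21G sh-MEX3A#1 and -0.82 at baseline, beside 0.099 and 0.12 for all genes. A prior count of 0.5 gave 1 gene at least 2-fold lower with PA-1 sh-MEX3A#1 and a baseline median of -1.46, and RLE scaling gave 1 lower with PA-1 sh-MEX3A#2. For log2(TPM + 1), this prior count and RLE scaling, the shares of all genes at least 2-fold higher or lower were not counted. The baseline median was -1.09 without the filter. With measurable genes only and zero controls at their bound, an alternative chosen after seeing the data, the medians were 0.40 with PA-1 sh-MEX3A#1 and -1.46 at baseline. The fit had 2 residual degrees of freedom and 1 control per line, which limits every test, and counting intervals are wide below 10 counts.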
